A study of Homo sapiens with 9 samples.

Results

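The 33 genes described here encode ATF4, the transcription factors that work with it, and the enzymes, transporters and regulators through which cells make and take up amino acids. They were chosen by name, with earlier results of these data known. They comprise 7 transcription factors and feedback genes, 11 synthesis enzymes and 8 amino acid transporters. The rest are 4 regulators of translation and of the growth kinase complex mTORC1, and 3 further ATF4 targets. All 33 names matched 1 gene ID each among the 63677 gene IDs counted, and all 33 passed the filter on low counts, among 18173 genes tested between the groups. The study asked how a disease-associated mutation of the splicing factor SRSF2 changes RNA splicing, and it sequenced polyadenylated RNA of K562, a human erythroleukaemia line derived from chronic myeloid leukaemia. There were 9 libraries: the parental line with wild-type SRSF2, 4 CRISPR clones with wild-type SRSF2 (W19, W33, W36 and W42, the WT clones) and 4 CRISPR clones carrying SRSF2 P95H (P9, P15, P22 and P38, the P95H clones). All are sublines of 1 cell line. Each clone is 1 library, so a p-value measures the spread between clones, which can include differences between single-cell founders. The labels give neither the number of mutant alleles in a clone nor whether clones of a group were edited separately.

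ATF4 is the main effector of the integrated stress response. When kinases that sense amino acid shortage, unfolded protein, double-stranded RNA or heme deficiency phosphorylate the translation factor eIF2, protein synthesis in general falls but the ATF4 messenger is translated more, so ATF4 protein can rise with no change in ATF4 RNA. ATF4 then pairs with C/EBP proteins at composite C/EBP-ATF elements and raises transcription of genes for amino acid synthesis, amino acid uptake and tRNA charging, together with genes such as TRIB3 and CHAC1 that act in feedback and in cell death. In erythroid cells the heme-regulated kinase EIF2AK1 is the best known upstream kinase of this response.

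The libraries held 24546255 to 35477328 reads in genes, so that 3 reads correspond to 0.0846 to 0.122 CPM, the unit of level used here (counts scaled to a common library total with edgeR's TMM factors). SRSF2 itself was at 450 to 505 CPM in the WT clones and at 444 to 577 CPM in the P95H clones, a gene count that cannot show the P95H substitution. All 10 erythroid markers examined were above 1 CPM in every library, with summed levels of 3415 to 5099 CPM in the WT clones, 3055 to 7009 CPM in the P95H clones and 4095 CPM in the parental line. Of 5 fibroblast markers, 4 stayed below 1 CPM in every library, with LUM at 0 throughout, and 1 was above 1 CPM in every library. The fibroblast sums were 2.76 to 10.6 CPM in the WT clones and 1.17 to 7.04 CPM in the P95H clones. Of 5 lymphoid markers 2 were above 1 CPM in every library and MS4A1 was at 0, with sums of 13.3 to 33.3 CPM in the WT clones and 4.63 to 22.5 CPM in the P95H clones. Of 5 neutrophil and monocyte markers 1 was above 1 CPM in every library, with sums of 12.0 to 21.3 and 10.2 to 32.9 CPM. Their sum in the parental line was 39.7 CPM. Clone W33 stood apart: 2246 of 20636 genes (10.9%) passed the test against the other WT clones, whereas the same comparison for W19 and W36 passed 0 genes (0%), and for W42 4 genes (0.0194%). The count for W33 was 527 without W19, and 0 without W36 or without W42. Clone ranks are also given without W33.

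Composite C/EBP-ATF elements are the sequence feature that ties many of these genes to ATF4, so the members' promoters were read for the letters TGATGNAA on either strand. RefSeq windows of 250 bases before to 50 bases after an annotated start (GRCh38.p14) were at hand for 25 of the 33 members. The letters occurred in 8 of these 25 genes (32%), beside 4.46% of the 27305 genes with a window. Counted by window, the shares were 8 of 40 (20%) and 3.62% of 35116. A match describes letters in a window and is not a measured binding site. The 8 matches are printed below 5′ to 3′ along the transcribed strand, with the matching 8 bases in capitals.
CEBPG, chr19:33374060-33374089, plus strand, match starting 42 bases upstream of the start: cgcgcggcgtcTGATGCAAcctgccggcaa
ASNS, chr7:97872458-97872487, minus strand, 68 bases upstream: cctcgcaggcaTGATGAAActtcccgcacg
SLC3A2, chr11:62881725-62881748, plus strand, from base 38 of the transcript, on the other strand: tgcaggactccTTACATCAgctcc
SLC7A1, chr13:29595663-29595692, minus strand, from base 8 of the transcript: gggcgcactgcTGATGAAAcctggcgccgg
SLC1A4, chr2:64989381-64989410, plus strand, 7 bases upstream, on the other strand: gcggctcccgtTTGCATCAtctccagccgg
SLC1A5, chr19:46784893-46784922, minus strand, 97 bases upstream: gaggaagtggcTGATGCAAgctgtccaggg
SLC38A1, chr12:46266502-46266531, minus strand, 4 bases upstream: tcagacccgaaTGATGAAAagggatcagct
CHAC1, chr15:40953251-40953280, plus strand, 209 bases upstream, on the other strand: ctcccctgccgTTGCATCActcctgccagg

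Of the 8 genes, 5 encode transporters, and the exact letters TGATGCAA or their complement were shared by CEBPG, SLC1A4, SLC1A5 and CHAC1. The full 250 upstream bases are shown for ASNS and CHAC1, an enzyme and a stress-induced target that were both lowest in P22.
ASNS, chr7:97872409-97872658, minus strand: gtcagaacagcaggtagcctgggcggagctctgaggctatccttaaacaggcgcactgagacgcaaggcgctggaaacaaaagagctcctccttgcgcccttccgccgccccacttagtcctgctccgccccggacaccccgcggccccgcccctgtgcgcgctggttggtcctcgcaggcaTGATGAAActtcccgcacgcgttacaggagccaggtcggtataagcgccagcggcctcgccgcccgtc
CHAC1, chr15:40953221-40953470, plus strand: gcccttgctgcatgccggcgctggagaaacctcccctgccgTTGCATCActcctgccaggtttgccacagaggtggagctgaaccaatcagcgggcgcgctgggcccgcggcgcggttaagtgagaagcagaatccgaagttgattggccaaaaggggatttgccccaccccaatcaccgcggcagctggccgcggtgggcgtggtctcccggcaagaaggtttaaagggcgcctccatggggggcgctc

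Levels of different genes were compared as CPM per kilobase of annotated exon, averaged over the 8 clones. The length was that of all exons of a gene merged, from another annotation than that of the counts. It was 5.674 kilobases for NUPR1 and 9.217 for PHGDH. The order of genes, and ratios between genes, depend on this choice, and lengths of single transcripts were not tried. ATF4 had the highest level of the 33 genes on this scale, 159.9. SLC1A5, which imports glutamine, followed at 105, PYCR1, which makes proline, at 90.1, DDIT4, an mTORC1 inhibitor, at 68.6, EIF4EBP1, the repressor of cap-dependent translation, at 66.5 and SLC3A2, the heavy chain shared by several transporters, at 55.8. ASNS, SLC7A5 and MTHFD2 were next to each other at 41.7, 41.6 and 41.2, closer than the spread of any of them over the clones. The lowest levels were those of ALDH1L2 at 1.23, NUPR1 at 0.502 and VLDLR at 0.0518 CPM per kilobase. VLDLR rested on 5 to 27 reads and NUPR1 on 14 to 255 reads per library, so their values are the least precise.

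The spread of these genes between clones was wider at the median than that of all genes. Over the 30 members with a mean of at least 10 CPM, the median standard deviation of log2 CPM across the 8 clones was 0.32 (range 0.13 to 0.96), beside 0.23 for 10230 genes above the same level. Of the 30, 16 lay above the upper quartile of all genes (0.31) and 9 above the 90th percentile (0.42). PYCR1, ALDH18A1 and SLC3A2 were the steadiest of the 30, with standard deviations of 0.13, 0.14 and 0.15. Between the lowest and the highest clone, CPM differed 14.8-fold for NUPR1, 6.56-fold for CHAC1, 6.19-fold for ALDH1L2, 5.75-fold for DDIT4, 5.37-fold for SLC1A4, 4.78-fold for PHGDH and 4.34-fold for SLC7A11. The ATF4 messenger itself differed 1.93-fold.

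**Figure D1:**
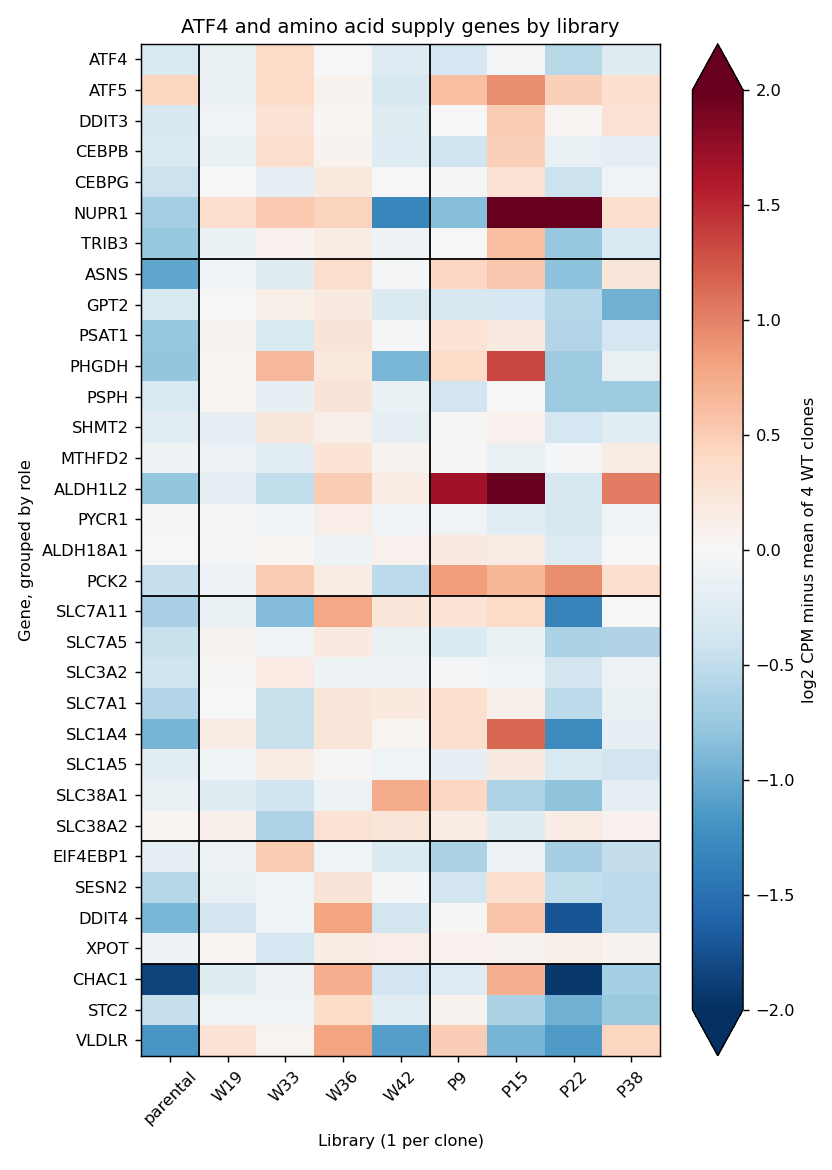
Each cell is the log2 CPM of 1 gene (rows, grouped by role) in 1 library (columns) minus the mean of the 4 WT clones; red is higher, blue lower, and values beyond 2 in either direction take the end colour. The columns of the parental line and of clone P22 are blue at most genes, with medians over the 33 genes of −0.43 and −0.52, and those of W36 and P15 are mostly red, with medians of 0.19 and 0.18.

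Between P95H and WT clones, no member passed edgeR's quasi-likelihood test at an adjusted p of 0.05, and no gene of the 18173 tested did (0%). The smallest adjusted p among members was 0.320. At an unadjusted p under 0.05 there were 8 members: ATF5, ALDH1L2 and PCK2 were higher in P95H clones and GPT2, PSPH, SLC7A5, EIF4EBP1 and STC2 were lower. Over all genes the same criterion held for 6.07% in the higher and 5.65% in the lower direction. DESeq2 called no member (VLDLR had no adjusted p), beside 261 genes in all (1.44%), and limma-voom none, beside 34 genes (0.187%). The difference was below 0 for 22 of the 33 genes, with a median of −0.08 on the log2 scale, against 47.9% of all genes and a median of 0.01. That count was 15 when either W36 or P22 was left out and lay between 15 and 24 over the 8 fits that each left out 1 clone. GPT2 and PYCR1 were lower in every P95H clone than in every WT clone, which held for 4.65% of all genes, and no member was higher in every P95H clone (3.95% of all genes).

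**Figure D2:**
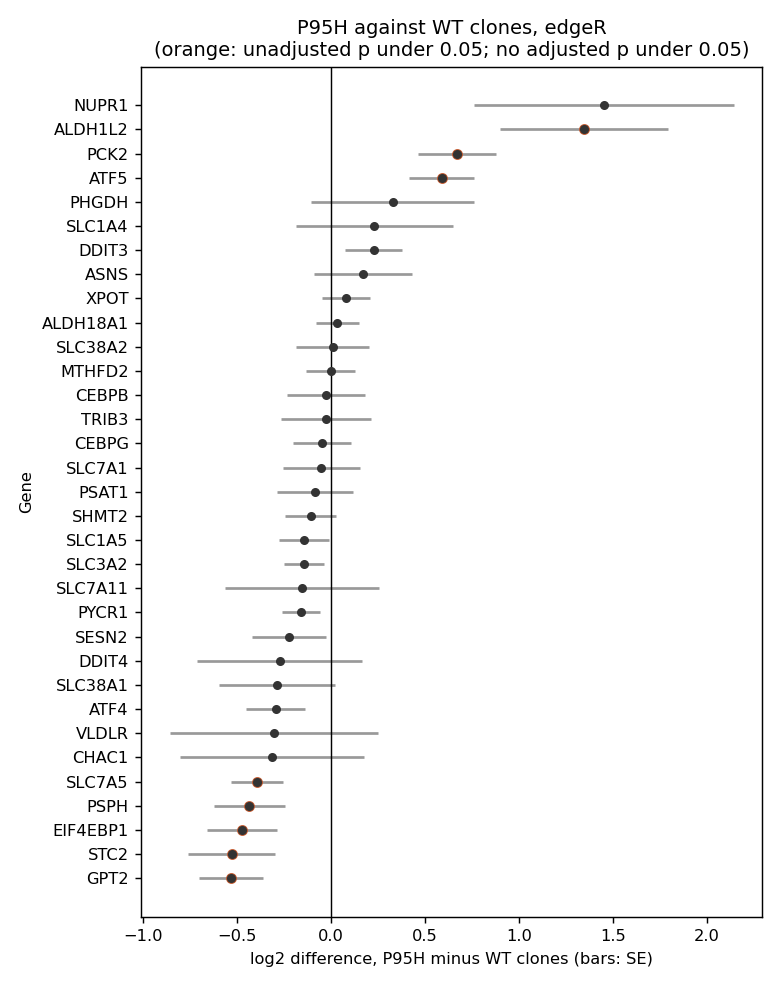
The log2 difference of P95H minus WT clones (x axis; bars are standard errors) is plotted for each gene (y axis, in order of the difference), with genes at an unadjusted p under 0.05 in orange. NUPR1, ALDH1L2, PCK2 and ATF5 lie farthest to the right and GPT2 and STC2 farthest to the left; no gene passed after adjustment over all genes.

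Among the transcription factors, ATF4 stood at 398, 573, 442 and 365 CPM in W19, W33, W36 and W42 and at 348, 425, 297 and 369 CPM in P9, P15, P22 and P38, with 353 CPM in the parental line. The WT clones were higher on average, 444 ± 91.3 against 359.8 ± 53.2 CPM (SD, n = 4 each), but the groups overlapped and W33 alone set the top of the range. The log2 difference was −0.29 (SE 0.16), at an edgeR adjusted p of 0.491. ATF5, a related factor whose translation is also favoured under eIF2 phosphorylation, had a difference in the other direction that did not pass the adjusted test. Its levels were 37.70, 54.2, 43.4 and 33.3 CPM in the WT clones and 62.7, 78.7, 57.9 and 52.3 CPM in the P95H clones, in the same order of clones, with 55.8 CPM in the parental line. Every P95H clone lay above W19, W36 and W42, and only P38 was below W33; the log2 difference was 0.59 (SE 0.17) at an edgeR adjusted p of 0.32 (unadjusted 0.00665). It stayed between 0.46 and 0.72 with any 1 clone left out. The parental line, at 55.8 CPM, was also above every WT clone. ATF5 lies across from IL4I1 and NUP62 on the opposite strand, and the kit does not mark strand, so reads of the overlap cannot be assigned. The same holds for ALDH1L2 and NOPCHAP1, SHMT2 and NDUFA4L2, MTHFD2 and SLC4A5, and for the antisense RNAs of SLC7A11, DDIT4 and VLDLR.

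DDIT3, which encodes the stress factor CHOP, was at 33.5, 43.0, 36.1 and 29.8 CPM in the WT clones and 35.4, 50.4, 36.5 and 42.9 CPM in the P95H clones, and at 28.1 CPM in the parental line. The groups overlapped, and its log2 difference was 0.23 (SE 0.15; edgeR adjusted p 0.573); it overlaps MARS1 and MBD6 on the other strand. CEBPB and CEBPG, C/EBP partners of ATF4, had log2 differences of −0.02 and −0.05. NUPR1, a small stress-induced chromatin protein, was at 1.75, 2.01, 1.88 and 0.515 CPM in the WT clones and 0.728, 6.52, 7.62 and 1.76 CPM in the P95H clones. P15 and P22 were high, P9 was below 3 of the WT clones, and the difference of 1.45 (SE 0.69) had an edgeR adjusted p of 0.447. TRIB3, a pseudokinase that ATF4 induces and that restrains ATF4, was at 68.8, 79.4, 82.8 and 70.1 CPM in the WT clones, 75.4, 114, 44.5 and 60.5 CPM in the P95H clones and 44.4 CPM in the parental line. Its group means differed by −0.03 (SE 0.24) on the log2 scale (edgeR adjusted p 0.975). P15 lay above all WT clones, and P22 and P38 lay below all of them.

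**Figure D3:**
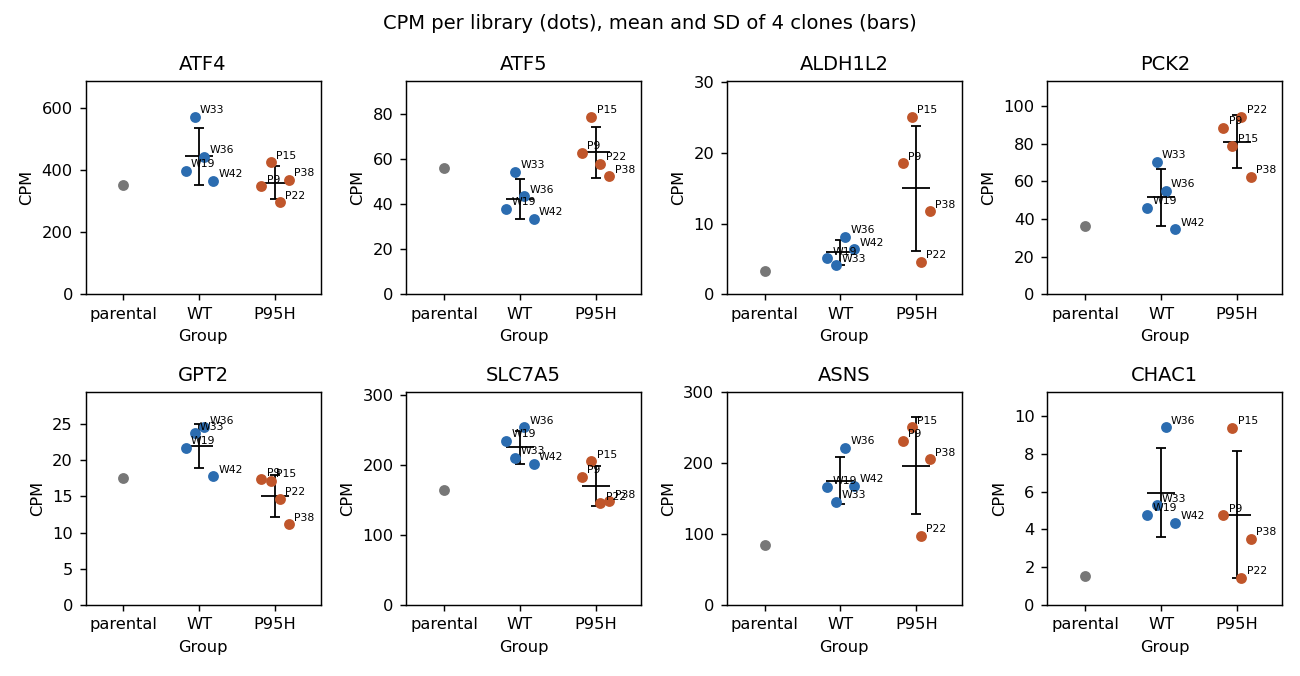
CPM (y axis, from 0) of 8 genes is shown by group (x axis), with 1 dot per library and the mean and SD of the 4 WT and the 4 P95H clones as bars. ALDH1L2 is above the WT clones in P9, P15 and P38 but not in P22 (4.57 CPM), GPT2 has no overlap between the groups, and ASNS and CHAC1 are lowest of the clones in P22.

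Of the 11 synthesis enzymes, the 3 that act in serine synthesis did not share a direction. PHGDH, the first enzyme of the pathway, was at 70.3, 107, 78.8 and 35.9 CPM in the WT clones, 88.5, 172, 41.5 and 61.2 CPM in the P95H clones and 39.8 CPM in the parental line. W33 and P15 were the highest of their groups, W42 and P22 the lowest, and the log2 difference of 0.33 (SE 0.44; edgeR adjusted p 0.79) ranged from −0.18, without P15, to 0.56 with 1 clone left out. PSAT1, the second enzyme, was at 108, 83.3, 123 and 100.4 CPM in the WT clones and 124, 117, 68.5 and 81.1 CPM in the P95H clones, with 61.1 CPM in the parental line. Here the parental line and P22 were the lowest libraries, and the difference between groups was −0.08 (SE 0.20; edgeR adjusted p 0.893). PSPH, which completes serine synthesis, averaged 19.9 ± 2.73 against 14.7 ± 3.64 CPM, a difference of −0.43 (SE 0.19) at an edgeR adjusted p of 0.414. PSPH is less certain than its neighbours in the pathway, since its copy PSPHP1 held 33.4% as many reads.

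Downstream of serine, the mitochondrial folate enzymes behaved unequally. SHMT2 and MTHFD2, which pass one-carbon units from serine to folate, differed by −0.11 and −0.00. ALDH1L2, which oxidises formyl-folate and yields NADPH in mitochondria, was at 5.06, 4.06, 8.14 and 6.36 CPM in the WT clones and 18.5, 25.2, 4.57 and 11.7 CPM in the P95H clones, and at 3.33 CPM in the parental line. P9, P15 and P38 were above every WT clone, and P22 was below 3 of the 4. Its log2 difference was 1.35 (SE 0.45) at an edgeR adjusted p of 0.337 (DESeq2 0.0811), and 0.97 to 1.64 with 1 clone left out. PCK2, the mitochondrial enzyme that makes phosphoenolpyruvate, was at 45.8, 70.4, 55.1 and 34.5 CPM in the WT clones and 88.5, 79.0, 94.6 and 62.5 CPM in the P95H clones, with 36.1 CPM in the parental line. P9, P15 and P22 lay above every WT clone, P38 was below W33 only, and the difference was 0.67 (SE 0.21; edgeR adjusted p 0.329). PCK2 was, with NUPR1, 1 of 2 members at which P22 was the highest clone, a rank it held for 13% of all genes. Without W33, ATF5 and PCK2 were the 2 members with every P95H clone above every WT clone, a pattern of 7.04% of all genes in those 7 clones.

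ASNS, which makes asparagine and is a classic ATF4 target, was at 166, 146, 222 and 168 CPM in the WT clones, 232, 251, 97.7 and 205 CPM in the P95H clones and 83.9 CPM in the parental line. P9, P15 and P38 were within or above the range of the WT clones, while P22 and the parental line were the 2 lowest libraries. The difference between groups was 0.17 (SE 0.26) at an edgeR adjusted p of 0.822. GPT2, the mitochondrial alanine aminotransferase, was at 21.7, 23.8, 24.6 and 17.8 CPM in the WT clones and 17.3, 17.2, 14.7 and 11.2 CPM in the P95H clones, with 17.6 CPM in the parental line. The lowest WT clone, W42, and the highest P95H clone, P9, were close together, and the difference was −0.53 (SE 0.17; edgeR adjusted p 0.334, unadjusted 0.0114). In proline synthesis, PYCR1 also had no overlap, with 270.2, 264, 302 and 263 CPM in the WT clones and 262, 238, 221 and 259 CPM in the P95H clones. The lowest WT clone, W42, and the highest P95H clone, P9, differed by less than 2 CPM, the group difference was −0.16 (SE 0.10; edgeR adjusted p 0.55), and ALDH18A1, which makes the proline precursor, was at 94.9 ± 5.16 against 96.6 ± 12.9 CPM.

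Of the 8 transporters, 6 had a difference below 0 between P95H and WT clones, and none passed the test. SLC7A5, the light chain of the LAT1 exchanger that imports large neutral amino acids such as leucine, was at 234, 210.2, 254 and 201 CPM in the WT clones and 183, 205, 145 and 148 CPM in the P95H clones, and at 164 CPM in the parental line. Only P15 reached the range of the WT clones, at a level between W42 and W33. The difference was −0.39 (SE 0.14) at an edgeR adjusted p of 0.347 (unadjusted 0.0179); an unnamed gene on the opposite strand shares its locus. SLC3A2, the heavy chain that carries SLC7A5 and SLC7A11 to the cell surface, averaged 304 ± 27.4 against 274 ± 26.8 CPM, a difference of −0.14 (SE 0.11; edgeR adjusted p 0.616). Per kilobase, the ratio of SLC7A5 to SLC3A2 was 0.831, 0.672, 0.975 and 0.776 in the WT clones and 0.678, 0.783, 0.676 and 0.576 in the P95H clones. The groups overlapped in this ratio, at 0.814 ± 0.126 and 0.678 ± 0.0844 (SD, n = 4 each).

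SLC7A11, the cystine importer xCT, was at 17.7, 10.7, 33.8 and 23.2 CPM in the WT clones, 23.6, 25.9, 7.77 and 19.5 CPM in the P95H clones and 12.4 CPM in the parental line. Its lowest clones were P22 and W33 and its highest W36, and the group difference was −0.15 (SE 0.41; edgeR adjusted p 0.907). Relative to SLC3A2, the SLC7A11 level per kilobase was 0.0638 in W36 but 0.0169 in W33 and 0.0178 in P22. SLC1A4, which carries alanine, serine and cysteine, was at 26.7, 17.5, 28.4 and 24.8 CPM in the WT clones and 30.0, 52.8, 9.84 and 21.3 CPM in the P95H clones. P15 was the highest clone and P22 the lowest, and the groups differed by 0.23 (SE 0.42). SLC1A5, the glutamine importer, averaged 369 ± 29.4 against 332 ± 60.0 CPM, and SLC7A1, which imports arginine and lysine, 39.8 ± 8.04 against 38.4 ± 9.16 CPM. SLC38A1 and SLC38A2, which take up glutamine and other small neutral amino acids, differed between the groups by −0.29 and 0.01, and SLC38A1 was highest in W42, at 180 CPM.

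The regulators of translation and mTORC1 gave 74.96, 116, 76.4 and 66.3 CPM of EIF4EBP1 in the WT clones and 52.7, 75.1, 51.6 and 58.6 CPM in the P95H clones, with 71.2 CPM in the parental line. P15 was the 1 P95H clone within the range of the WT clones, and the difference was −0.47 (SE 0.19; edgeR adjusted p 0.378, unadjusted 0.0289). SESN2, a leucine sensor that restrains mTORC1, averaged 49.4 ± 6.42 against 42.1 ± 12.8 CPM, and DDIT4, which acts through the TSC complex, 155 ± 66.0 against 128 ± 73.6 CPM. DDIT4 ranged from 43.8 CPM in P22 to 252 CPM in W36. XPOT, the exporter of tRNA from the nucleus, had a difference of 0.08 and 137, 135, 141 and 135 CPM in the P95H clones, the narrowest group among these 4 genes.

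Of the 3 further targets, CHAC1, which degrades glutathione, was at 4.77, 5.27, 9.42 and 4.34 CPM in the WT clones, 4.75, 9.39, 1.44 and 3.51 CPM in the P95H clones and 1.52 CPM in the parental line. W36 and P15 were at nearly the same high level and P22 and the parental line at nearly the same low one, on 48 to 304 reads per library. The difference between the groups was −0.31 (SE 0.49) at an edgeR adjusted p of 0.825. STC2, a secreted glycoprotein, averaged 15.5 ± 2.91 against 10.7 ± 3.65 CPM, a difference of −0.53 (SE 0.23; edgeR adjusted p 0.421). VLDLR, a lipoprotein receptor, lay between 0.17 and 0.86 CPM over all libraries.

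The order of the 8 clones at each gene is given as a description, with no test. The members were chosen with earlier results of these data known. P22 was the lowest of the 8 clones at 20 of the 33 members (60.6%), whereas it was the lowest at 13.8% of all genes. W36 was the highest at 12 members (36.4%; 4.72% of all genes) and P15 at 11 (33.3%; 14.5% of all genes). Together W36 and P15 held the top rank at ASNS, TRIB3, PHGDH, SESN2, SLC7A11, SLC7A5, DDIT4 and CHAC1 among others. W33 was highest at 4 members (29.2% of all genes), namely ATF4, SHMT2, SLC3A2 and EIF4EBP1, and lowest at 4 (27.8% of all genes), namely MTHFD2, ALDH1L2, SLC38A2 and XPOT. W42 was lowest at ATF5, DDIT3, NUPR1, PHGDH and PCK2 (10.7% of all genes), and W19 was neither highest nor lowest at any member. Without W33, P22 was the lowest clone at 21 members (19.5% of all genes), W36 the highest at 15 (9.71%) and P15 the highest at 11 (20.3%).

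**Figure D4:**
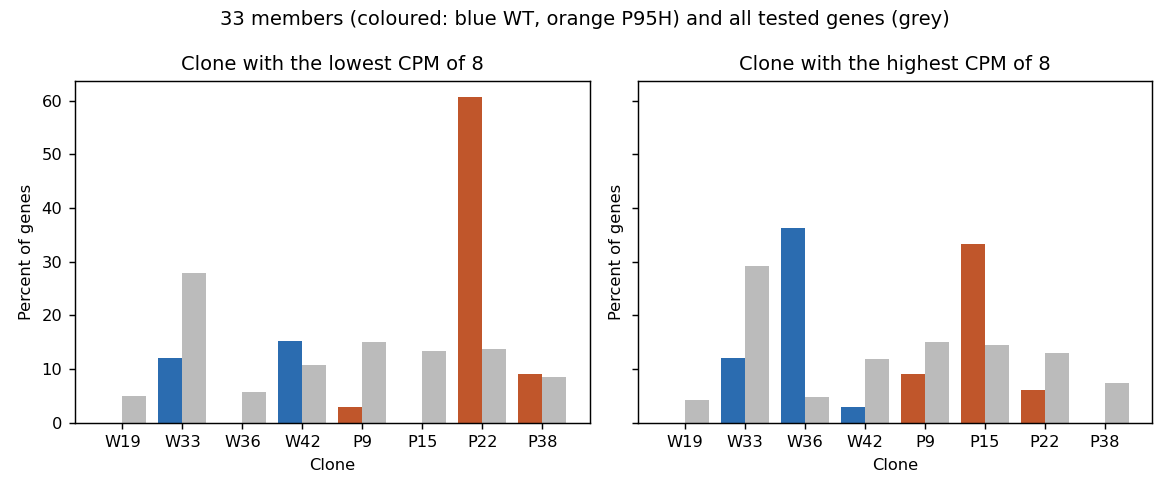
For each clone (x axis), the coloured bar is the percent of the 33 genes, and the grey bar the percent of all tested genes, at which that clone had the lowest or the highest CPM of the 8 clones. P22 holds the lowest rank at 60.6% of the 33 genes beside 13.8% of all genes, and W36 the highest rank at 36.4% beside 4.72%.

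P22 was then set against the other 3 P95H clones in a fit of all 9 libraries, in which the lone clone is assumed to vary like the rest. The edgeR test called 88 of 20636 genes (0.426%) and no member. Leaving out P9, P15 or P38 gave 31, 35 and 48 genes and no member, and with no filter on low counts 249 genes and 1 member were called. For 29 of the 33 members the difference was below 0, with a median of −0.36, beside 53.1% of all genes. At an unadjusted p under 0.05 there were 8 members, all lower in P22, a criterion that 4.1% of all genes met in that direction. They were ASNS, ALDH1L2, SLC1A4, DDIT4, SLC7A11, CHAC1, TRIB3 and ALDH18A1. DESeq2 called 4 of them, ASNS, ALDH1L2, SLC1A4 and DDIT4, beside 2.35% of all genes.

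ASNS in P22 was at 97.7 CPM and in the other P95H clones at 205 to 251 CPM, a log2 difference of −1.23 (SE 0.26) at an edgeR adjusted p of 0.103 and a DESeq2 adjusted p of 0.00073. ALDH1L2, at 4.57 CPM beside 11.7 to 25.2 CPM, differed by −2.02 (SE 0.52; edgeR adjusted p 0.173, DESeq2 0.00426). SLC1A4, at 9.84 CPM beside 21.3 to 52.8 CPM, differed by −1.82 (SE 0.51; edgeR adjusted p 0.213, DESeq2 0.00923). These 3 are an enzyme of asparagine synthesis, an enzyme of mitochondrial folate and a transporter of alanine and serine. DDIT4, at 43.8 CPM beside 101 to 218 CPM, differed by −1.83 (SE 0.57; edgeR adjusted p 0.282, DESeq2 0.0186). ATF4 RNA in P22 differed by −0.36 (SE 0.26) from the other P95H clones, at an edgeR adjusted p of 0.892, and NUPR1 and PCK2 had differences above 0, of 1.33 and 0.30.

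P15 was set against the other P95H clones in the same way; P22 is in that reference group, and P15 in that of P22, so the 2 sets of differences are not independent. In P15 against the other P95H clones, edgeR called 1 gene (0.00485%) and no member, and 8 members were at an unadjusted p under 0.05, all higher in P15 (4.48% of all genes in that direction). They were SESN2, TRIB3, SLC1A4, PHGDH, CHAC1, CEBPB, PSPH and SLC1A5. SESN2 differed by 0.77 (SE 0.19) at an edgeR adjusted p of 0.282, and it was the 1 member DESeq2 called, at an adjusted p of 0.0293 (1.38% of all genes). PHGDH, at 172 CPM in P15 beside 41.5 to 88.5 CPM, differed by 1.43 (SE 0.50) at an edgeR adjusted p of 0.518. The same test called no gene (0%) in P9 and none (0%) in P38.

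Among the WT clones, W36 had a log2 difference from the other 3 that was above 0 at 28 of the 33 members and below 0 at 5, with a median of 0.25, whereas 53.8% of all genes were below 0 in that comparison. The number below 0 was 8 without W19, 3 without W33 and 10 without W42. None of the 33 passed the edgeR test, nor did any other gene (0%). In W33, edgeR called 2 members. SLC38A2 was at 87.1 CPM, below 143, 163 and 158 CPM in W19, W36 and W42, and fell by 0.84 on the log2 scale (SE 0.18, edgeR adjusted p 0.0276). XPOT was at 101 CPM, below 134.7, 143 and 142 CPM, and fell by 0.48 (SE 0.11, edgeR adjusted p 0.031). A share of 2 in 33 is below the 10.9% of all genes called in W33, and DESeq2 called 3 members beside 17.6% of all genes, the third being EIF4EBP1 with 0.66 (adjusted p 0.0304). Both edgeR calls were lost when W19, W36 or W42 was left out, while the log2 differences stayed between −0.89 and −0.80 for SLC38A2 and between −0.51 and −0.46 for XPOT.

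The parental line was low at most of the 33 genes, as P22 was. Against the WT clones, which share wild-type SRSF2 with it, 31 of 33 members were below 0, with a median of −0.43, beside 52.9% of all genes and a median of −0.02. Without W33 it was 30 of 33. ATF5, at 0.41, and PYCR1, at 0.03, were the exceptions. The parental line was below all 4 WT clones at 21 members (14.9% of all genes) and below all 8 clones at 9 (6.94% of all genes), namely DDIT3, TRIB3, ASNS, PSAT1, ALDH1L2, SLC3A2, SLC7A1, SESN2 and VLDLR. The rank at VLDLR rested on 6 reads in the parental line, beside 5 in W42, 6 in P22 and 7 in P15. With 1 parental library the test called 1 gene in all (0.00485%) and no member. ASNS differed by −1.06 (SE 0.45), PSAT1 by −0.76 (SE 0.34) and CHAC1 by −1.96 (SE 0.90), each at an edgeR adjusted p of 1. P95H clones and the parental line were both compared with the same WT clones, so these 2 sets of differences are not independent.

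K562 clones can differ in gene copy number, so the genes next to each member were read as well, as the median log2 difference from the mean of the WT clones over 20 tested genes on each side. In P22 these medians were −0.06 beside ASNS, −0.03 beside ALDH1L2, 0.04 beside SLC1A4, 0.04 beside DDIT4, −0.15 beside CHAC1 and −0.23 beside SLC7A11. From the same mean of the WT clones, the genes themselves were at −0.83, −0.32, −1.28, −1.73, −1.93 and −1.33 in that order. Each was larger in size than its neighbours' median. In P15 the neighbours of PHGDH had a median of 0.08 while PHGDH itself was at 1.34, and those of SESN2 a median of 0.07 while SESN2 was at 0.31. In P9 SESN2 and its neighbours lay at −0.36 and −0.35. SLC3A2 in P15 was the reverse case: its neighbours had a median of −0.61, and SLC3A2 itself was at −0.09. Copy number was not measured here.

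The promoter letters shown above were set beside the clone ranks. P22 was the lowest clone at 7 of the 8 genes with a match and at 8 of the 17 with a window and no match. P15 or W36 was the highest clone at 5 of the 8 and at 13 of the 17. These are counts over few genes in the same clones and carry no test.

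Genes around the pathway were read from 6 further lists, none of which had a member called by edgeR between P95H and WT clones. Beside the counts at an unadjusted p under 0.05 stand 6.07% of all genes in the higher and 5.65% in the lower direction. The groups did not overlap at 8.6% of all genes, and DESeq2 called 1.44%. In these lists they did not overlap at 1 of the 16 eIF2 genes, 0 of 8 bZIP factors and 1 of 20 synthetases. For the further enzymes it was 6 of 29, for the further transporters 1 of 14 and for the mTORC1 genes 3 of 29. DESeq2 called 1 of the further enzymes, 2 of the mTORC1 genes and none in the other lists. Of 16 genes for the eIF2 kinases, their phosphatases and the eIF2B exchange factor, 8 were below 0, with a median of 0.04. Only EIF2B3, an eIF2B subunit, reached an unadjusted p under 0.05, lower in the P95H clones. Of 8 tested bZIP stress factors, 4 were below 0 and none reached that level. The cytosolic aminoacyl-tRNA synthetases, many of them ATF4 targets, had 14 of 20 below 0 with a median of −0.12, and 2 reached that level, both lower. RARS1, the arginine enzyme, was at 316 ± 16.4 CPM in the WT clones and 249 ± 31.0 CPM in the P95H clones (SD, n = 4 each) with no overlap. AARS1, the alanine enzyme, was at 248 ± 13.8 and 208 ± 24.4 CPM. In P22 against the other P95H clones, 17 of the 20 synthetases were below 0, with a median of −0.18, beside 53.1% of all genes. The count was also 17 of 20 for W19 against the other WT clones (median −0.12). It was again 17 of 20 for the parental line against the WT clones (median −0.07).

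Among 29 tested enzymes of amino acid and one-carbon metabolism outside the 33, the smallest p was that of OAT, which links ornithine to proline and glutamate. OAT was at 240.4, 247, 232 and 229 CPM in the WT clones and at 416, 419, 305 and 347 CPM in the P95H clones. Every P95H clone was thus above every WT clone, which held for 3.95% of all genes. The log2 difference was 0.66 (SE 0.12) at an edgeR adjusted p of 0.220, while DESeq2 gave an adjusted p of 0.000213. OAT was the 1 enzyme higher at an edgeR unadjusted p under 0.05, and 3 were lower, CBS, MTHFD2L and AMT. CBS was at 341 ± 21.8 CPM in the WT clones and 275 ± 21.3 CPM in the P95H clones, with no overlap. Every P95H clone was below every WT clone at 4.65% of all genes. The folate enzyme MTHFD2L was at 43.3 ± 4.96 CPM in the WT clones and 31.8 ± 5.31 CPM in the P95H clones with overlap. AMT was at 2.49 ± 0.919 CPM in the WT clones and 1.31 ± 0.503 CPM in the P95H clones, with no overlap. Among 14 tested further transporters, 5 were below 0, with a median of 0.06, and 2 were higher at an unadjusted p under 0.05. SLC36A1, a lysosomal amino acid transporter, was at 15.7 ± 0.911 CPM in the WT clones and 21.7 ± 3.22 CPM in the P95H clones. Of 29 tested genes of mTORC1 and its amino acid sensors, 18 were below 0, with a median of −0.05, and the 4 at an unadjusted p under 0.05 were all higher in the P95H clones. FLCN, which acts on the Rag GTPases at the lysosome, was at 23.6, 20.9, 22.4 and 23.1 CPM in the WT clones and at 32.4, 31.3, 33.4 and 28.7 CPM in the P95H clones, with no overlap. Its log2 difference was 0.49 (SE 0.11), at an edgeR adjusted p of 0.282 and a DESeq2 adjusted p of 0.00148. RRAGB, a Rag GTPase, was at 16.9 ± 1.35 and 24.1 ± 3.02 CPM, with adjusted p-values of 0.293 in edgeR and 0.0224 in DESeq2.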

How the data were processed

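RNA of 9 K562 libraries was counted. The authors deposited unnormalized counts of reads for each Ensembl gene. GRCh37, TopHat2 2.0.4, HTSeq 0.6.1p1 and bcl2fastq are named per the submitters' processing notes; for overlap mode and strand the setting is not given in the sources used here. Reads in no gene (47.6 to 49.1% of listed reads) and ambiguous reads (2.23 to 2.55%) stayed out of library sizes and tests. Reads where genes overlap or have near-identical copies are uncertain.

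Symbols came from reference tables by gene ID (52526 of 63677), and 185 of 186 list entries matched; the build differs from that of the counts, so no gene coordinates are given, and promoter windows are RefSeq's. The main test was edgeR 4.0.16 in R 4.3.3: filterByExpr, TMM, robust quasi-likelihood F test, Benjamini-Hochberg adjustment over all genes tested, threshold 0.05. P95H against WT used the 8 clones; the parental line, and each clone against the rest of its group (8 comparisons), used all 9 libraries, a lone library being assumed to vary like the others. Levels are TMM-scaled CPM; log2 CPM used a prior count of 2. The scripts were tested on simulated data. Between P95H and WT clones, edgeR recovered 6% of simulated 1.5-fold changes, 38% of 2-fold changes and 94% of 4-fold changes. At each of these sizes it recovered fewer in the simulated comparison of a single clone. Most changes of 2-fold or less can thus be missed. DESeq2 1.42.0 and limma 3.58.1 (voom with quality weights), RLE scaling, other filters, and fits without each clone in turn were alternatives.

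Some genes of the further lists are not reported here. The members and lists were chosen with earlier results of these data known. Values in every library were set for ATF4, ATF5, DDIT3, ASNS, PSAT1, PHGDH, SLC7A11, SLC7A5, CHAC1 and TRIB3, the 6 members with the smallest p between P95H and WT, up to 3 called members in each other comparison, and up to 3 genes of each other list by smallest p; other members given in full were picked after their values were seen.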

Additional observations from a re-analysis of the deposited data

Results flagged for a closer look

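SESN2, the leucine sensor that restrains mTORC1, was at 61.1 CPM in P15, while the other 3 P95H clones were at 38.3, 35.0 and 34.1 CPM. The gap between P15 and the next clone took a share of 0.845 of the group's whole range, more than Dixon's 95% limit for 4 samples. In all, 66 groups of 4 clones (33 genes in 2 genotypes) were examined and this was the 1 found; by chance about 1 group in 20 would be. The neighbours of SESN2 in P15 had a median log2 difference of 0.07 from the WT clones.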

How the results depend on the processing

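No member was called between P95H and WT clones under any setting tried. The number of genes called there was 2 with no filter on low counts, 261 with DESeq2, 34 with limma-voom and 5 without W33 and P22, and 0 to 1 with 1 clone left out. Elsewhere DESeq2 called 7 genes for the parental line (5 with no filter, 0 with the stricter filter), 3622 for W33, 5 for W36, 8 for W42, 41 for P9, 284 for P15, 484 for P22 and 19 for P38. With no filter, 1 gene was called for W19, 25 for P15, 249 for P22 and 1 for P38. Members called rose to 4 (DESeq2) and 1 (no filter) for P22 and to 1 (DESeq2) for P15. With 1 other clone left out, genes called were 0 to 1 for the parental line, 0 to 527 for W33, 2 to 3 for W42 and 31 to 48 for P22, and members called for W33 were 0 in each. Members below 0 then numbered 15 to 24 for P95H, 28 to 30 for the parental line, 18 to 25 for W19, 14 to 19 for W33, 3 to 10 for W36, 20 to 28 for W42, 6 to 17 for P9, 7 to 9 for P15, 26 to 28 for P22 and 16 to 27 for P38. Over 10 instead of 20 genes on each side, neighbour medians were 0.19 for PHGDH in P15, −0.038 for SLC1A4 in P22 and 0.20 for DDIT4 in P22. Without W33, 2 members had every P95H clone above every WT clone; leaving out W33, and W33 with P22, was chosen after seeing the data. Signs of group differences turned for genes near 0 and for some farther from it. Among the latter, SLC1A4 was at 0.23 and PHGDH at 0.33 in the main fit. Without W33 and P22 the sign turned for CEBPB (0.12), TRIB3 (0.17), SHMT2 (0.035), SLC38A2 (−0.20) and XPOT (−0.043). With limma-voom it turned for SLC1A4 (−0.19), SLC38A2 (−0.13) and XPOT (−0.023). For MTHFD2 it turned with no filter (0.00486) and the stricter one (0.000343). With 1 clone left out, the log2 difference ran from −0.24 to 0.084 for CEBPB, −0.18 to 0.055 for CEBPG, −0.32 to 0.14 for TRIB3, −0.23 to 0.047 for PSAT1, −0.18 to 0.56 for PHGDH, −0.079 to 0.091 for MTHFD2, −0.030 to 0.11 for ALDH18A1, −0.38 to 0.16 for SLC7A11, −0.19 to 0.078 for SLC7A1, −0.25 to 0.51 for SLC1A4, −0.58 to 0.021 for SLC38A1, −0.16 to 0.094 for SLC38A2, −0.66 to 0.061 for DDIT4, −0.028 to 0.12 for XPOT and −0.60 to 0.043 for VLDLR. The causes were not tested. VLDLR was not tested under the stricter filter. No paired analysis was possible because the groups share no clone numbers.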

Other observations

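Of 116 tested genes in the 6 lists around the pathway, edgeR called 15 (12.9%) in W33 against the other WT clones, a share near the 10.9% of all genes. None was called in 3 of the lists, those of eIF2 regulators, bZIP factors and further transporters. Among the aminoacyl-tRNA synthetases, FARSA, HARS1, QARS1 and VARS1 were called and were higher. VARS1, the valine enzyme, was at 587 CPM in W33 and at 395, 428 and 407 CPM in W19, W36 and W42. Of 29 tested genes of mTORC1 and its sensors 7 were called: MLST8, WDR24, NPRL3, LAMTOR2 and LAMTOR4 were higher, and MTOR, the kinase itself, and RPS6KB1, which it phosphorylates, were lower. LAMTOR4, a subunit of the Ragulator scaffold, was at 112 CPM in W33 and at 58.7, 59.3 and 49.1 CPM in the others, and MTOR at 97.2 CPM beside 157, 148 and 165 CPM. Among the further enzymes, PYCR3, a proline enzyme, was called and was higher. Without W36 or without W42 no gene was called in W33, and without W19 527 genes were; whether these genes were among the 527 was not tested. FARSA, HARS1, MTOR, MLST8, WDR24, NPRL3 and LAMTOR4 overlap genes on the opposite strand, whose reads cannot be told apart.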
